A study of Mus musculus with 16 samples.

Results

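The genes described here were 35 genes of glycolysis and of the response to low oxygen, chosen by name, whose probe sets were read on 16 Affymetrix arrays of R7T1 cells, a line of beta cells from mouse pancreas. A gene's value was the log2 intensity of its probe set with the highest mean, provided that it reached log2 4 on at least 2 arrays. Of the 35 genes, 28 met this and were tested, among 10610 genes tested in all. Hk2 (mean log2 2.34), Egln3 (2.80) and Car9 (1.97) had probe sets that stayed under that level. Gpi1, Gapdh, Eno1 and Bnip3l had no probe set assigned to them alone apart from array controls. Cells had received BayK8644 together with exendin-4 (the combination), BayK8644 alone (given as BayK8644(2a)), exendin-4 alone, or the DMSO vehicle, and were taken after 0.5, 2, 6 and 24 h. Each of the 4 treatments had 1 array at each of the 4 times. The labels do not explain the 2a, the doses are not given in the sources used here, and R7T1 is a single line grown in culture. The title of the series concerns small molecules that expand beta cells. No label states that the arrays come from different cultures, and the p-values therefore reflect only how these arrays vary, which may be technical.

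Glycolysis takes glucose, brought in by transporters of the Slc2a family, through hexokinase, phosphofructokinase, aldolase and enolase to pyruvate. Pyruvate then enters the mitochondria or is reduced to lactate by lactate dehydrogenase and leaves the cell through monocarboxylate transporters. Primary beta cells couple glucose use tightly to insulin release, and they keep Ldha and Slc16a1 low. Under low oxygen, prolyl hydroxylases such as Egln1 no longer mark Hif1a for destruction, and the stabilised factor switches on many glycolytic enzymes as well as Vegfa, Bnip3, Pdk1, P4ha1, P4ha2, Ankrd37, Ndrg1 and Mxi1. BayK8644, a dihydropyridine, prolongs the opening of L-type calcium channels, through which calcium triggers insulin release. Exendin-4, an agonist peptide of the GLP-1 receptor, raises cAMP.

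The cells carried the marks of beta cells. All 13 beta-cell markers with a probe set were tested, with mean log2 levels between 10.3 and 16.2. Of 4 measured markers of other islet endocrine cells, Gcg and Sst passed the filter, and the highest mean among the 4 was 9.58. Of 5 acinar and duct markers, Cela1 passed it, and the highest mean among the 5 was 9.31. The 9 mesenchymal, endothelial and leukocyte markers lay at log2 2.78 or below. Ldha averaged 11.58 over the 16 arrays and Slc16a1 10.44 over the DMSO arrays, and primary beta cells were not measured here. Median intensities of the arrays, on the linear scale and not as log2, ranged from 10.5 to 11.6, under the filter level (intensity 16). In RNA from a whole culture, fewer cells of a kind and less RNA per cell cannot be told apart.

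Promoters are shown for the genes past the test's threshold in the most comparisons, and for Ldha, which was added after its values were seen because its promoter held the most places. Sequences are from RefSeq, build GRCm38.p6, and run from 250 bases before to 50 bases after the first listed start, 5′ to 3′ on the gene's strand. Of the 35 genes, 32 had an entry. Capitals mark ACGTG or GCGTG, the core to which hypoxia-inducible factors bind, on either strand. Each CACGTG, an E-box, counts as 2 places because it holds ACGTG on both strands. The Ldhb promoter is at chr6:142507908-142508207 (minus strand), that of Eno2 at chr6:124769624-124769923 (minus), that of Mxi1 at chr19:53310256-53310555 (plus), that of Aldoa at chr7:126800398-126800697 (minus) and that of Ldha at chr7:46845554-46845853 (plus). Ndrg1, past the threshold as often as Eno2 and Mxi1, is named only.
Ldhb: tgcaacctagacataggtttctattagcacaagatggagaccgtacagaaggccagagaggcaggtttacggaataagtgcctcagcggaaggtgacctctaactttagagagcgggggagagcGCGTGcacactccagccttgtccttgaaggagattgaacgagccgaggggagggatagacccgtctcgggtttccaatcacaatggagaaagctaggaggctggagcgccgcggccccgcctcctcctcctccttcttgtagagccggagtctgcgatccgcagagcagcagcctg
Eno2: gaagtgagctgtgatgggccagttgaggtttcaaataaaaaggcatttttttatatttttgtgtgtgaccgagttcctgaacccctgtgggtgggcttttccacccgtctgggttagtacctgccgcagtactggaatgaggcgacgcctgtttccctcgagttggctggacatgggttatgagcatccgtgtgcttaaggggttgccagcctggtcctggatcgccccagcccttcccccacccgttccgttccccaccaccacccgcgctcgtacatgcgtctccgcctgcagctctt
Mxi1: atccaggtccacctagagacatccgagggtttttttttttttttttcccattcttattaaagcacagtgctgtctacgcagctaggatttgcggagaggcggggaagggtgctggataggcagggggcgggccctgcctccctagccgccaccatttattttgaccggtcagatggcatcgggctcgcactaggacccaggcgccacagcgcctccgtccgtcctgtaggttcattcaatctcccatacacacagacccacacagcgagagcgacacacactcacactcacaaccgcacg
Aldoa: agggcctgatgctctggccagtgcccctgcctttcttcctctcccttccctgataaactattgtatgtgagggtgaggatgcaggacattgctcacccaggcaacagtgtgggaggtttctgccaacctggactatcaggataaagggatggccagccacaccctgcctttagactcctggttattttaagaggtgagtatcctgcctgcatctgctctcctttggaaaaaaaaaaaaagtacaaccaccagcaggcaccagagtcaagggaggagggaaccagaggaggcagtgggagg
Ldha: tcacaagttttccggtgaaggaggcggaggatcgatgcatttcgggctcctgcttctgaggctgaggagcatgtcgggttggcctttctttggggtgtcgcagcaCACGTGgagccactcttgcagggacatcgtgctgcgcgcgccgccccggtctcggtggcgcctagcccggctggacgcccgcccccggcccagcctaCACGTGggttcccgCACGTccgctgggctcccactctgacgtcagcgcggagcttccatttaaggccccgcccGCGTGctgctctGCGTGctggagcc
The Ldhb window held 1 place, the Ldha window 7, with 2 of the E-boxes, and the windows of Eno2, Mxi1 and Aldoa held 0. Mxi1 and Aldoa each have 3 listed starts and Ldha has 2, and only the first was read. Among the 32 genes, 24 (75.0%) held at least 1 place, against 43.8% of all 27025 genes in the table. An E-box was found in 5 of the 32 (15.6%), against 7.2% of all genes. Of the 15 genes that passed the threshold somewhere and had an entry, 9 held a place. These are matches of letters and not measured binding.

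The same arrays were high for several of the genes. They were the DMSO array at 24 h and the combination arrays at 0.5 and 24 h. Bnip3, which acts in the removal of mitochondria, shows it. Bnip3 measured 12.48, 12.07, 11.76 and 12.47 on the combination arrays at 0.5, 2, 6 and 24 h, 11.90, 11.87, 11.90 and 12.06 on the BayK8644 arrays, 11.83, 11.65, 11.81 and 11.80 on the exendin-4 arrays and 11.67, 11.41, 11.62 and 12.57 on the DMSO arrays. Its 3 highest values were thus a DMSO array at 24 h and the combination arrays at 0.5 and 24 h, and the remaining arrays lay at 12.07 or below. Slc16a3 measured 8.17, 7.64, 7.08 and 8.28 on the combination arrays at 0.5, 2, 6 and 24 h, 7.37, 6.79, 6.995 and 6.95 on the BayK8644 arrays, 6.91, 6.77, 7.36 and 7.36 on the exendin-4 arrays and 6.91, 6.43, 6.54 and 8.07 on the DMSO arrays. Slc16a3, the exporter of lactate, had the same 3 arrays highest. Over the 28 genes, the DMSO array at 24 h was among the 3 highest arrays for 18, the combination array at 24 h for 18 and the combination array at 0.5 h for 12. The same shares over all genes tested were 20.0%, 35.8% and 18.1% of genes. After time and treatment had been fitted, the DMSO array at 24 h lay above its fitted value for 26 of the 28 genes (57.5% of all genes), with a root mean square residual of 0.253 for these genes and 0.117 for all genes. The combination array at 0.5 h lay above it for 23 of 28 (44.4% of all genes), with a root mean square residual of 0.180. Other arrays deviated too. The BayK8644 array at 6 h lay above its fitted value for 24 genes (50.6% of all genes), and the BayK8644 array at 24 h and the combination array at 6 h for 4 each (44.0% and 55.9% of all genes). The root mean square residuals of these 3 arrays were 0.133, 0.169 and 0.138, and those of the remaining 11 lay between 0.091 and 0.149. The 2 arrays with the largest residuals over the 28 genes were left out together in a further fit, chosen after the data had been seen, and each of the 16 was also left out in turn. Since that choice used these same 28 genes, genes gained in the further fit are not a result about them. Shares of all genes are not given for fits with arrays left out.

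**Figure D1:**
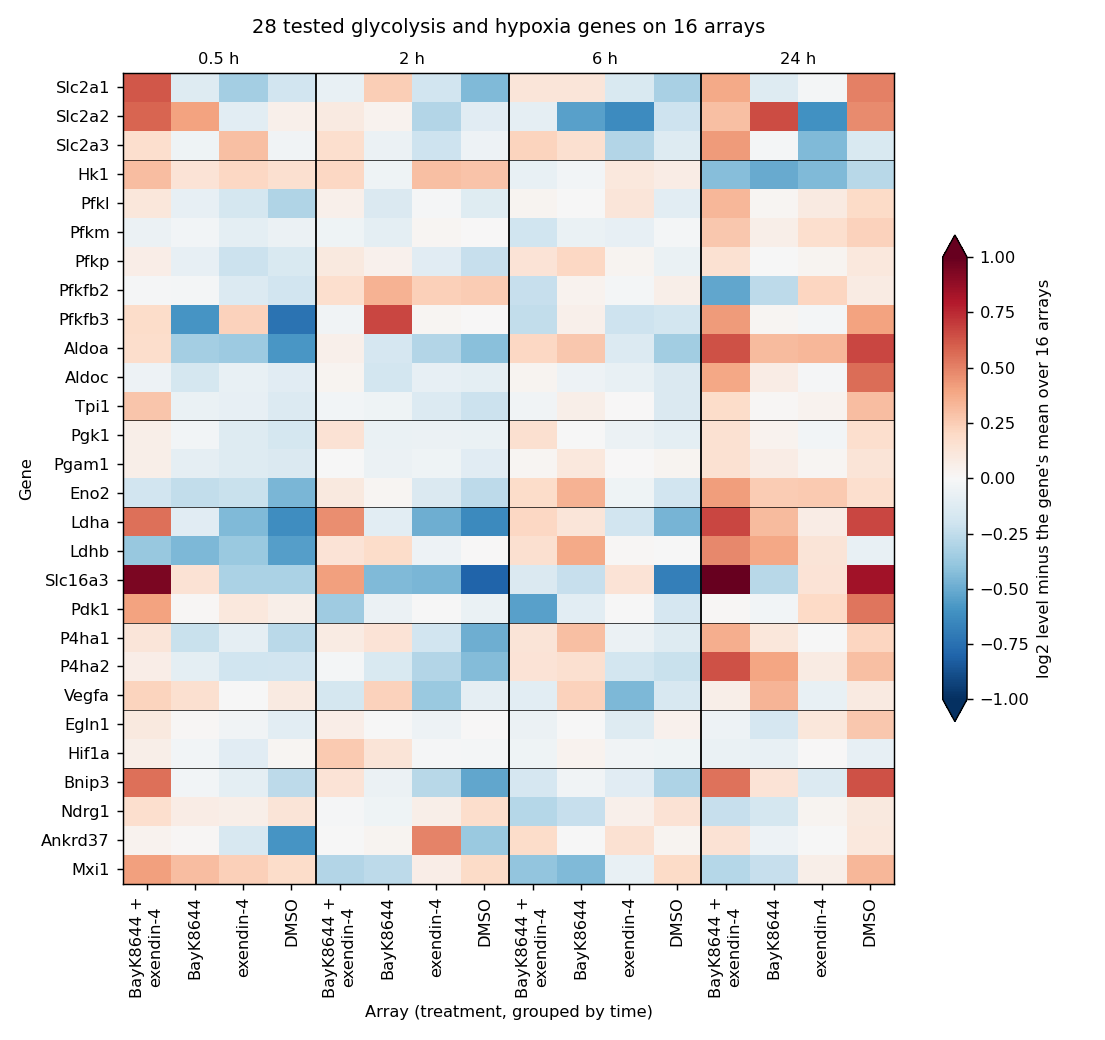
Log2 level of each of the 28 tested genes minus that gene's mean over the 16 arrays, with arrays grouped by time and, within a time, ordered combination, BayK8644, exendin-4 and DMSO (colours saturate at 1 and −1, and horizontal lines part the groups of genes by role). The DMSO column at 24 h and the combination columns at 0.5 and 24 h are mostly red, and Mxi1 and Ndrg1 are blue where BayK8644 was present from 2 h on.

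Time was the factor with the most differences. Between 24 h and 0.5 h, over the 4 treatments, 10 of the 28 genes rose and 1 fell by limma's test (adjusted p under 0.05), against 23.6% of all genes tested (1126 up and 1374 down). The median difference of the 28 genes was 0.18 on the log2 scale, and that of all genes −0.0014. Of the 10 genes that rose, 4 were of upper glycolysis, 3 of lower glycolysis, 2 were lactate dehydrogenase subunits and 1 was a hypoxia target outside glycolysis. Hk1 was the gene that fell, and 0 of 3 glucose transporters passed. Markers of the cells moved with time as well. Of 13 beta-cell markers, Abcc8 (0.28, adjusted p = 0.00412), Chga (0.18, adjusted p = 0.00809), G6pc2 (0.17, adjusted p = 0.0059) and Iapp (0.11, adjusted p = 0.027) rose and Pcsk1 (−0.20, adjusted p = 0.0384) fell at 24 h. Sst, a marker of islet delta cells, rose too (1.199, adjusted p = 0.0306), a call lost without the 0.5 or 24 h array of BayK8644 or of the combination. The intensities of the 13 beta-cell markers were summed before log2 was taken, so the brightest markers weigh most. The log2 of this sum lay between 17.94 and 18.02 at 24 h and between 17.84 and 17.91 at 0.5 h. That of the 4 measured markers of other islet endocrine cells lay between 9.19 and 10.03 at 24 h and between 9.67 and 9.77 at 0.5 h, and their part in the result was not tested. Of 10 control genes, Gusb (0.32, adjusted p = 0.0209) and Hspa9 (0.16, adjusted p = 0.00835) rose.

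In upper glycolysis, 4 of 9 tested genes rose and 1 fell. Aldoa measured 13.21, 13.07, 13.23 and 13.66 on the combination arrays at 0.5, 2, 6 and 24 h, 12.69, 12.86, 13.29 and 13.34 on the BayK8644 arrays, 12.66, 12.73, 12.89 and 13.36 on the exendin-4 arrays and 12.45, 12.61, 12.68 and 13.69 on the DMSO arrays. All 4 arrays at 24 h lay above all 4 at 0.5 h. Aldoa, an aldolase that splits fructose bisphosphate, was 1.70-fold higher at 24 h than at 0.5 h (log2 difference 0.76, SE 0.11, limma adjusted p = 0.000294). Its probe sets share probes with other sequences, by the array maker's naming, so closely similar copies could add to its signal. Hk1 measured 10.26, 10.16, 9.88 and 9.53 on the combination arrays at 0.5, 2, 6 and 24 h, 10.09, 9.91, 9.93 and 9.45 on the BayK8644 arrays, 10.16, 10.26, 10.06 and 9.52 on the exendin-4 arrays and 10.12, 10.24, 10.03 and 9.67 on the DMSO arrays. Hk1, a hexokinase, was 1.53-fold lower at 24 h (log2 difference −0.62, SE 0.07, adjusted p = 1.43e-05), and each treatment's lowest array was the one at 24 h. Aldoc measured 8.87, 8.94, 8.94 and 9.31 on the combination arrays at 0.5, 2, 6 and 24 h, 8.75, 8.73, 8.87 and 8.996 on the BayK8644 arrays, 8.84, 8.84, 8.84 and 8.91 on the exendin-4 arrays and 8.81, 8.82, 8.77 and 9.48 on the DMSO arrays. The aldolase Aldoc was 0.36 higher at 24 h (SE 0.09, adjusted p = 0.013), mostly through the DMSO and combination arrays.

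Of 3 phosphofructokinase subunits, which set the pace of glycolysis, 2 rose, by little. Pfkl measured 12.53, 12.47, 12.45 and 12.76 on the combination arrays at 0.5, 2, 6 and 24 h, 12.34, 12.28, 12.42 and 12.44 on the BayK8644 arrays, 12.25, 12.41, 12.54 and 12.51 on the exendin-4 arrays and 12.13, 12.30, 12.32 and 12.61 on the DMSO arrays. Pfkm measured 11.70, 11.71, 11.56 and 12.03 on the combination arrays at 0.5, 2, 6 and 24 h, 11.73, 11.66, 11.69 and 11.81 on the BayK8644 arrays, 11.66, 11.77, 11.67 and 11.92 on the exendin-4 arrays and 11.70, 11.76, 11.74 and 11.98 on the DMSO arrays. Pfkl was 0.27 higher at 24 h (SE 0.06, adjusted p = 0.00878) and Pfkm 0.24 higher (SE 0.05, adjusted p = 0.00361), and in each case every array at 24 h lay above the array of the same treatment at 0.5 h. Pfkp, the third subunit, had a difference of 0.16 (adjusted p = 0.066). Pfkfb3, which makes the activator fructose 2,6-bisphosphate, had 0.44 with a wide error (SE 0.22, adjusted p = 0.178).

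In lower glycolysis, all 3 tested genes rose. Eno2 measured 11.38, 11.67, 11.75 and 11.99 on the combination arrays at 0.5, 2, 6 and 24 h, 11.32, 11.59, 11.92 and 11.83 on the BayK8644 arrays, 11.34, 11.42, 11.53 and 11.83 on the exendin-4 arrays and 11.11, 11.31, 11.38 and 11.74 on the DMSO arrays. Eno2, the neuronal and neuroendocrine enolase, was 1.47-fold higher at 24 h than at 0.5 h (log2 difference 0.56, SE 0.06, adjusted p = 2.72e-05), and the groups did not overlap. Pgam1 measured 14.50, 14.44, 14.47 and 14.60 on the combination arrays at 0.5, 2, 6 and 24 h, 14.35, 14.38, 14.55 and 14.52 on the BayK8644 arrays, 14.31, 14.40, 14.44 and 14.46 on the exendin-4 arrays and 14.30, 14.33, 14.47 and 14.57 on the DMSO arrays. Pgk1 measured 13.95, 14.04, 14.05 and 14.04 on the combination arrays at 0.5, 2, 6 and 24 h, 13.86, 13.83, 13.89 and 13.93 on the BayK8644 arrays, 13.76, 13.83, 13.83 and 13.87 on the exendin-4 arrays and 13.72, 13.83, 13.80 and 14.06 on the DMSO arrays. Pgam1, a phosphoglycerate mutase, was 0.17 higher (SE 0.04, adjusted p = 0.0068), and Pgk1, which makes ATP from bisphosphoglycerate, 0.15 higher (SE 0.04, adjusted p = 0.0269). The Pgk1 groups overlapped, since the combination array at 0.5 h lay above the BayK8644 and exendin-4 arrays at 24 h. Tpi1, the isomerase of upper glycolysis, had a difference of 0.14 and was not past the threshold, and Gapdh, read only through 3 control probe sets left out of the tests, lay between 15.03 and 15.61 on all arrays.

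At the branch to lactate, 2 of 4 genes rose. Ldhb measured 11.63, 12.14, 12.17 and 12.49 on the combination arrays at 0.5, 2, 6 and 24 h, 11.56, 12.19, 12.38 and 12.39 on the BayK8644 arrays, 11.64, 11.96, 12.02 and 12.14 on the exendin-4 arrays and 11.46, 12.01, 12.003 and 11.94 on the DMSO arrays. Ldhb, the subunit that favours pyruvate formation, was 1.59-fold higher at 24 h (log2 difference 0.67, SE 0.07, adjusted p = 1.97e-05). Ldha measured 12.13, 12.05, 11.79 and 12.25 on the combination arrays at 0.5, 2, 6 and 24 h, 11.47, 11.48, 11.71 and 11.90 on the BayK8644 arrays, 11.14, 11.09, 11.39 and 11.66 on the exendin-4 arrays and 10.96, 10.94, 11.12 and 12.26 on the DMSO arrays. Ldha, the subunit that favours lactate formation, was 1.51-fold higher (log2 difference 0.59, SE 0.15, adjusted p = 0.013). The DMSO array at 24 h held the highest Ldha value of the 16, and the combination array was already at 12.13 at 0.5 h. Slc16a3 (0.33, SE 0.25) and Pdk1 (0.04, SE 0.13), the kinase that shuts pyruvate dehydrogenase, were not past the threshold.

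Among 7 tested hypoxia targets outside glycolysis, 1 rose. P4ha2 measured 9.68, 9.59, 9.75 and 10.25 on the combination arrays at 0.5, 2, 6 and 24 h, 9.52, 9.46, 9.77 and 10.01 on the BayK8644 arrays, 9.41, 9.32, 9.43 and 9.70 on the exendin-4 arrays and 9.43, 9.18, 9.40 and 9.92 on the DMSO arrays. P4ha2, a subunit of collagen prolyl hydroxylase, was 1.37-fold higher at 24 h than at 0.5 h (log2 difference 0.46, SE 0.07, adjusted p = 0.000214). Its partner P4ha1 had 0.28 (adjusted p = 0.0545), Bnip3 0.25 (adjusted p = 0.255) and Ankrd37 0.23 (adjusted p = 0.26). Ndrg1 had −0.18 (adjusted p = 0.0521) and Mxi1 −0.32 (adjusted p = 0.0572). The regulators Hif1a and Egln1 had differences of −0.04 and 0.05, and none of the 3 glucose transporters passed. Without the DMSO array at 24 h and the combination array at 0.5 h, 9 genes passed, and Aldoc and Pgk1 did not. Of the 11 calls, Pgk1 was also lost without any one of the DMSO arrays at 0.5 or 24 h, the exendin-4 array at 0.5 h or the combination array at 0.5 h, with an adjusted p of up to 0.0866, and the other 10 passed in each such fit.

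**Figure D2:**
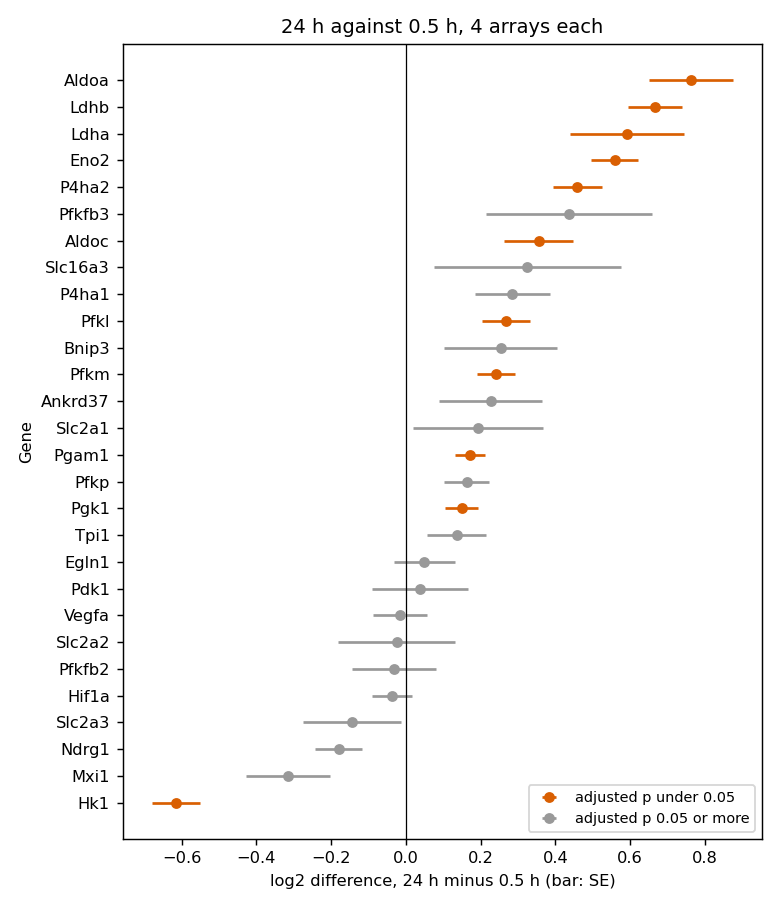
Log2 difference between 24 h and 0.5 h for each of the 28 tested genes, with the standard error as bars, over 4 arrays at each time. Aldoa, Ldhb, Ldha, Eno2 and P4ha2 lie furthest to the right among the 11 genes past the threshold, and Hk1 alone lies near −0.6.

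**Figure D3:**
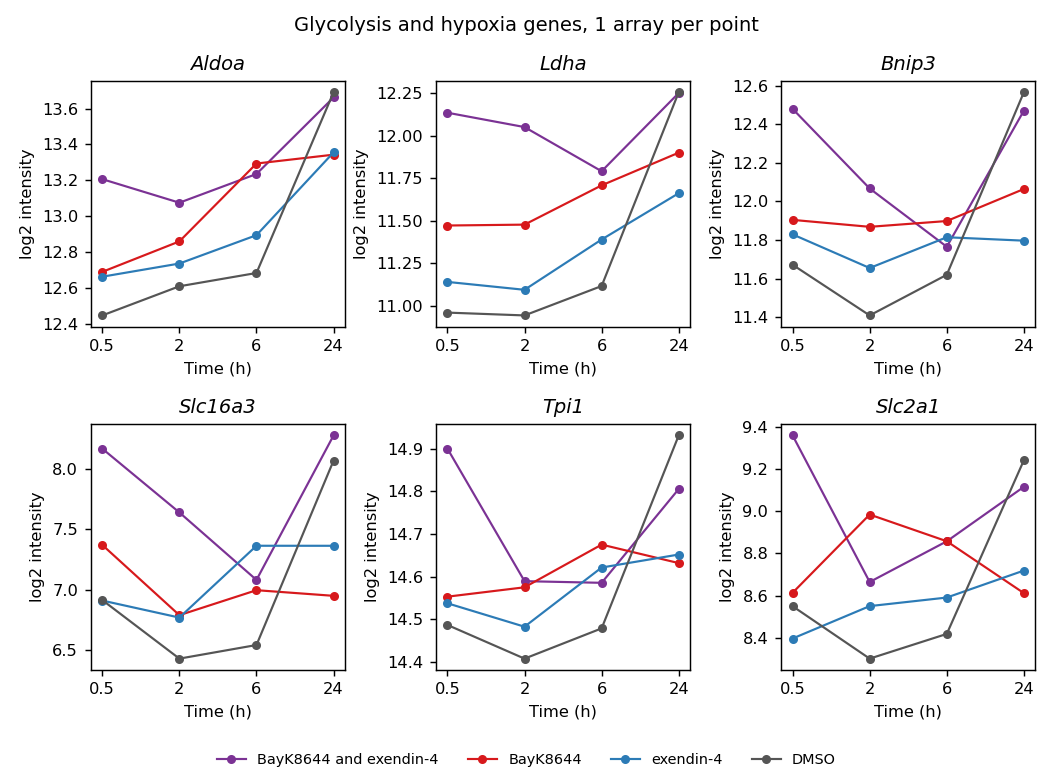
Log2 intensity of Aldoa, Ldha, Bnip3, Slc16a3, Tpi1 and Slc2a1 against time, with 1 array per point and a line per treatment. In each panel the DMSO line climbs steeply between 6 and 24 h, and the combination line begins high at 0.5 h.

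The earlier times showed fewer differences. At 2 h against 0.5 h, Ldhb rose by 0.50 (SE 0.07, limma adjusted p = 0.00401) and was the only 1 of the 28 genes to pass, against 4.68% of all genes. At 6 h, Ldhb (0.57, SE 0.07, adjusted p = 0.00198) and Eno2 (0.35, SE 0.06, adjusted p = 0.00777) were higher, and Mxi1 and Slc2a2 were lower, with 8.41% of all genes past the threshold. Slc2a2 measured 7.92, 7.43, 7.25 and 7.65 on the combination arrays at 0.5, 2, 6 and 24 h, 7.75, 7.38, 6.80 and 8.001 on the BayK8644 arrays, 7.24, 7.05, 6.71 and 6.74 on the exendin-4 arrays and 7.40, 7.23, 7.14 and 7.82 on the DMSO arrays. Slc2a2, the main glucose transporter of mouse beta cells, was 0.60 lower at 6 h than at 0.5 h (SE 0.16, adjusted p = 0.0334) and had a mean difference of −0.02 at 24 h. By treatment, the 24 h array minus the 0.5 h array was −0.28 with the combination, 0.25 with BayK8644, −0.50 with exendin-4 and 0.42 with DMSO. Mxi1, a repressor that antagonises Myc, was 0.46 lower at 6 h (SE 0.11, adjusted p = 0.0248), mostly on the arrays with BayK8644. The calls of Ldhb at both times and of Eno2 at 6 h held without any one array. Slc2a2 (adjusted p up to 0.125) and Mxi1 (up to 0.0955) were lost without any 1 of the 6 h arrays of BayK8644, exendin-4 or the combination, or without the 0.5 h arrays of BayK8644 or the combination. Slc2a2 was also lost without the DMSO array at 6 h or the exendin-4 array at 0.5 h. Fits without 1 of the BayK8644, exendin-4 or combination arrays at 6 h, or the combination array at 0.5 h, left 2 genes at 6 h. At 2 h, 2 genes passed without the DMSO or BayK8644 array at 0.5 h, the BayK8644 array at 6 h or the exendin-4 array at 24 h. Without the 2 arrays with the largest residuals, the genes past the threshold at 6 h were Aldoa, Eno2, Ldhb and Pgam1. Since those arrays were chosen by residuals over these same 28 genes, the gain of Aldoa and Pgam1 is not a result about them.

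Over the 4 times, 5 of the 28 genes rose and 1 fell between the combination and DMSO, against 6.97% of all genes tested (465 up and 275 down). Those that rose were Ldha, Aldoa, Eno2, Pgk1 and P4ha2, and Ndrg1 fell. The median difference was 0.19 for the 28 genes and 0.02 for all genes. Ldha, whose values are given above, averaged 12.06 ± 0.20 with the combination and 11.32 ± 0.63 with DMSO (SD, n = 4 arrays each), a 1.67-fold difference (log2 0.74, SE 0.15, limma adjusted p = 0.0186). At 2 h it was 12.05 on the combination array and 10.94 on the DMSO array, and at 24 h it was 12.25 on the combination array and 12.26 on the DMSO array, so the difference lay in the first 3 times. Aldoa was 0.44 higher (SE 0.11, adjusted p = 0.038), P4ha2 0.34 (SE 0.07, adjusted p = 0.0156), Eno2 0.31 (SE 0.06, adjusted p = 0.0174) and Pgk1 0.17 (SE 0.04, adjusted p = 0.0366). For Eno2 and P4ha2 the combination array was the higher at each of the 4 times.

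Ndrg1, a stress-responsive gene that hypoxia is known to raise, went the other way. Ndrg1 measured 14.23, 14.05, 13.78 and 13.83 on the combination arrays at 0.5, 2, 6 and 24 h, 14.14, 14.02, 13.83 and 13.88 on the BayK8644 arrays, 14.12, 14.12, 14.11 and 14.09 on the exendin-4 arrays and 14.19, 14.24, 14.21 and 14.16 on the DMSO arrays. With the combination it averaged 13.97 and with DMSO 14.20, a difference of −0.23 (SE 0.06, adjusted p = 0.0457). Slc16a3 had the largest difference of the 28 (0.80) but also the largest error (SE 0.25, adjusted p = 0.0635). P4ha1 had 0.34 (adjusted p = 0.0535), Bnip3 0.38 (adjusted p = 0.126) and Slc2a1, the transporter most tied to hypoxia, 0.37 (adjusted p = 0.182). Gcg, a marker of islet alpha cells, rose with the combination too (0.49, adjusted p = 0.0312). The log2 of the summed intensities of the 4 measured markers of other islet endocrine cells lay between 9.70 and 10.16 with the combination. With DMSO it lay between 9.19 and 9.67, and the part of these markers in the result was not tested. The Gcg call was lost without the 2, 6 or 24 h array of the combination or of DMSO.

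These combination calls depended on single arrays. Without the DMSO array at 2 h, the DMSO array at 6 h or the combination array at 2 h, 0 of the 28 genes passed. Without the combination array at 24 h 1 passed, without that at 6 h 2 passed, and without the exendin-4 array at 2 h or 6 h 3 passed. Without the DMSO or the exendin-4 array at 24 h, 10 passed. Without the 2 arrays with the largest residuals, 14 passed, 11 higher and 3 lower with the combination. The added ones were Bnip3, P4ha1, Pfkl, Pfkp, Slc16a3 and Tpi1, which were higher, and Mxi1 and Pdk1, which were lower. Shares of all genes are not given for these fits with arrays left out. Since the 2 arrays were chosen by their residuals over these same 28 genes, the larger count is not a result about the genes. On the arrays of 24 h alone, 13 of the 28 genes were higher with the combination than with DMSO, with a median of −0.01. At 0.5 h 27 of 28 were higher with a median of 0.25, at 2 h 20 with 0.19 and at 6 h 19 with 0.14. The shares over all genes were between 51.7% and 57.0%.

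Either agent alone gave no call among the 28 genes over the 4 times. BayK8644 against DMSO had 0 of 28 past limma's threshold, against 0.839% of all genes. At an unadjusted p under 0.05 there were 8 of 28 (28.6%), against 14.9% of all genes. The smallest adjusted p was that of Eno2 (0.0674), and the median difference was 0.07, against −0.01 for all genes. Between 1 and 3 genes passed without the 0.5 h array of any 1 treatment or without the DMSO array at 24 h. They numbered 3 without the BayK8644 array at 0.5 h, 2 without the DMSO array at 0.5 h and 1 in the other 3 fits. Leaving out all arrays of 0.5 h gave 5, and leaving out the 2 arrays with the largest residuals gave 1, Ldha. Shares of all genes are not given for these fits, and those 2 arrays were chosen by residuals over the same 28 genes. These larger counts are therefore not a result about the genes. Exendin-4 against DMSO had 0 of 28 and 0% of all genes past the threshold, with 4 of 28 (14.3%) at an unadjusted p under 0.05, against 6.58% of all genes. On the 24 h arrays, BayK8644 was above DMSO for 7 of the 28 genes (42.0% of all genes) and exendin-4 for 4 (38.3% of all genes). At 0.5, 2 and 6 h, BayK8644 was above DMSO for 22, 19 and 20 of them (56.8%, 44.6% and 49.5% of all genes). Exendin-4 was above DMSO for 19, 20 and 18 (58.1%, 53.8% and 48.3% of all genes). The same DMSO arrays served in these comparisons and in that of the combination.

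When the 2 arrays with BayK8644 were set against the 2 without it at each time, most of the 28 genes had positive differences at 0.5, 2 and 6 h, and a few fell at 6 and 24 h. At 0.5 h, 26 of 28 genes had positive differences (54.5% of all genes) with a median of 0.15, against 0.01 for all genes, but 0 passed, against 0.217% of all genes. At an unadjusted p under 0.05 there were 4 (14.3%), against 2.05% of all genes. At 2 h, 0 passed, against 1.63% of all genes, with 10 at an unadjusted p under 0.05 (35.7%, against 12% of all genes). Positive differences numbered 22 of 28 (46.2% of all genes), with a median of 0.18, against −0.01 for all genes. Mxi1 came closest at 2 h (−0.41, SE 0.09, limma adjusted p = 0.0719), and Ldha had 0.74 (SE 0.20, adjusted p = 0.132). Leaving out the DMSO array at 24 h gave 1 call at 2 h and leaving out any other array of 24 h gave 2. Without the 2 arrays with the largest residuals Ldha passed at 2 h. Since those arrays were chosen by residuals over these same 28 genes, that call is not a result about Ldha.

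At 6 h, 1 gene rose and 2 fell with BayK8644, against 2.48% of all genes. Positive differences were found for 21 of 28 genes (54.7% of all genes), with a median of 0.10, against 0.01 for all genes. Mxi1 measured 11.29, 10.59, 10.49 and 10.60 on the combination arrays at 0.5, 2, 6 and 24 h, 11.19, 10.62, 10.44 and 10.65 on the BayK8644 arrays, 11.12, 10.95, 10.81 and 10.94 on the exendin-4 arrays and 11.07, 11.07, 11.08 and 11.21 on the DMSO arrays. Mxi1 averaged 10.46 with BayK8644 and 10.95 without it at 6 h (log2 difference −0.48, SE 0.09, adjusted p = 0.0306). All BayK8644 arrays from 2 h on were below all others from 2 h on. Ndrg1 averaged 13.80 with BayK8644 and 14.16 without it (log2 difference −0.36, SE 0.06, adjusted p = 0.0167). Vegfa measured 10.97, 10.57, 10.64 and 10.80 on the combination arrays at 0.5, 2, 6 and 24 h, 10.90, 10.97, 10.97 and 11.08 on the BayK8644 arrays, 10.74, 10.37, 10.30 and 10.67 on the exendin-4 arrays and 10.83, 10.65, 10.58 and 10.83 on the DMSO arrays. Vegfa, the growth factor for blood vessels that islets secrete, was 0.37 higher with BayK8644 at 6 h (SE 0.08, adjusted p = 0.0423), with the lowest value on the exendin-4 array. A second Vegfa probe set gave 0.07, so the size rests on 1 probe set.

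At 24 h, 1 gene rose and 3 fell with BayK8644, against 5.11% of all genes. Ldhb was 0.40 higher (SE 0.07, adjusted p = 0.015). Mxi1 was 0.45 lower (SE 0.09, adjusted p = 0.026) and Ndrg1 0.27 lower (SE 0.06, adjusted p = 0.0359). Pfkfb2 measured 9.91, 10.09, 9.69 and 9.40 on the combination arrays at 0.5, 2, 6 and 24 h, 9.90, 10.27, 9.96 and 9.66 on the BayK8644 arrays, 9.78, 10.16, 9.90 and 10.14 on the exendin-4 arrays and 9.73, 10.18, 9.99 and 10.01 on the DMSO arrays. Pfkfb2, a bifunctional enzyme that sets fructose 2,6-bisphosphate, was 0.54 lower with BayK8644 at 24 h (SE 0.11, adjusted p = 0.0246), and its other 3 probe sets gave between −0.24 and −0.04. Every other probe set of Ldhb, Mxi1 and Ndrg1 had the sign of the one used. The median over the 28 genes was 0.0011 and that of all genes 0.0066, with 14 of 28 positive (51.6% of all genes).

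These calls rest on few arrays, and shares of all genes are not given for the fits with arrays left out. At 6 h the count was 0 without any 1 of the 4 arrays at 6 h, 1 without any array at 0.5 or 2 h, and 5 without any array at 24 h. At 24 h it was 1 without any array at 0.5 h, 0 without the combination array or the exendin-4 array at 24 h, and 5 without the BayK8644 or the DMSO array at 24 h. Without the 2 arrays with the largest residuals, Aldoa (higher) and Ndrg1 (lower) passed at 6 h. Those arrays were chosen by residuals over these same genes, so the gain of Aldoa is not a result about it. At 24 h that fit left 1 array without BayK8644, and its calls are not given. Leaving out an array of another time cannot alter a difference, since each time has its own terms. Leaving out 1 of the same time reduces it to 1 pair, BayK8644 minus DMSO or combination minus exendin-4. At 6 h these pairs gave −0.64 and −0.32 for Mxi1, −0.38 and −0.33 for Ndrg1 and 0.39 and 0.34 for Vegfa. At 24 h the pairs gave 0.46 and 0.35 for Ldhb and −0.56 and −0.34 for Mxi1. They gave −0.27 and −0.26 for Ndrg1 and −0.34 and −0.74 for Pfkfb2. Of the 4 measured markers of other islet endocrine cells, Gcg rose at 6 h (0.52, adjusted p = 0.0348), and Gcg (0.56, adjusted p = 0.0176) and Sst (2.36, adjusted p = 0.000218) rose at 24 h. The log2 of the summed intensities of the 4 at 6 and 24 h lay between 9.79 and 10.16 with BayK8644. Without BayK8644 it lay between 9.19 and 9.67. The same measure of 13 beta-cell markers lay between 17.87 and 17.97 with BayK8644 and between 17.85 and 18.02 without it. Nkx2-2, a transcription factor of beta cells, was the 1 of these 13 to pass, and was lower with BayK8644. Nkx2-2 measured 12.87, 12.61, 12.43 and 12.36 on the combination arrays at 0.5, 2, 6 and 24 h, 12.76, 12.48, 12.43 and 12.28 on the BayK8644 arrays, 12.72, 12.996, 12.85 and 13.01 on the exendin-4 arrays and 12.67, 12.86, 12.71 and 12.92 on the DMSO arrays. Its difference was −0.38 at 2 h (adjusted p = 0.0113), −0.35 at 6 h (adjusted p = 0.0143) and −0.64 at 24 h (adjusted p = 0.000499). At 24 h the calls of Nkx2-2 and Sst held without any 1 array, and the Nkx2-2 calls at 2 and 6 h were each lost when 1 array of the same time was left out, with adjusted p reaching 0.184 and 0.221. The Gcg calls were lost in 8 of the 16 such fits at 6 h and in 2 at 24 h. The part of these markers in the result was not tested.

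**Figure D4:**
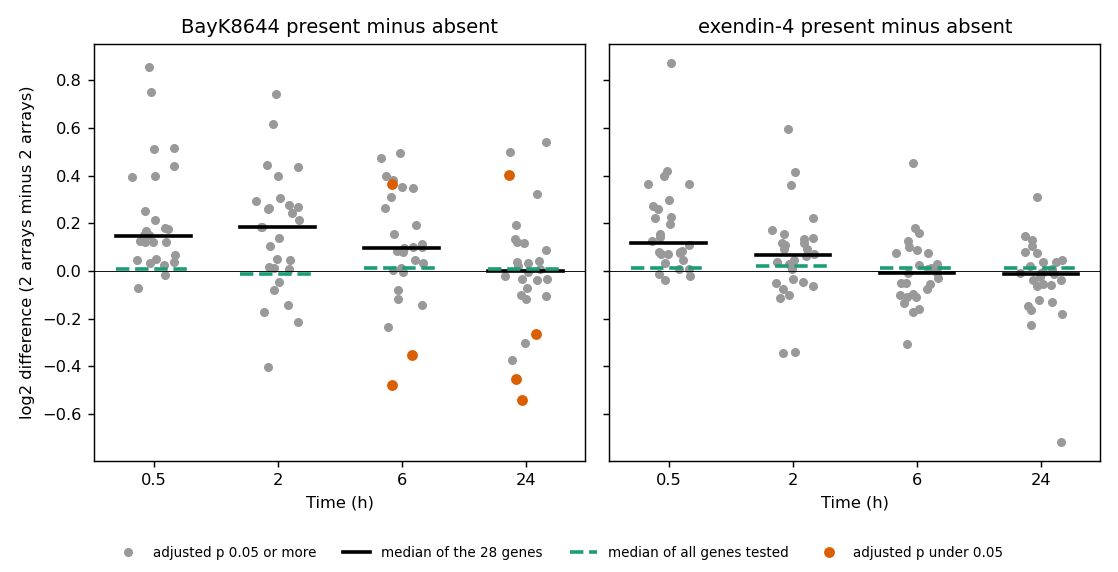
Log2 difference between the 2 arrays with an agent and the 2 without it, at each time, for BayK8644 (left) and exendin-4 (right). Each point is 1 of the 28 genes, solid bars are their median, and dashed bars the median of all genes tested. The BayK8644 median is 0.15 at 0.5 h, 0.18 at 2 h, 0.10 at 6 h and 0.0011 at 24 h, and the 7 orange points are the calls.

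Exendin-4 gave no call among the 28 genes at any time. At 0.5, 2, 6 and 24 h the shares of all genes past limma's threshold were 0.00943%, 0.0189%, 0% and 0%. At an unadjusted p under 0.05 there were 2, 1, 1 and 2 of the 28 genes at these times, against 1.89%, 5.55%, 6.97% and 5.91% of all genes. The median over the 28 was 0.12 at 0.5 h (25 of 28 positive, 57.3% of all genes) and 0.07 at 2 h, against 0.01 and 0.02 for all genes. At 6 and 24 h it was −0.01 at both. The combination array at 0.5 h, which deviated, was on the side with the agent here and in the BayK8644 comparison. For exendin-4 alone minus DMSO at 0.5 h, 19 of 28 genes were higher (58.1% of all genes), with a median of 0.05. Vegfa had −0.35 at 2 h (SE 0.08, adjusted p = 0.382), and Pfkfb3 had 0.87 at 0.5 h, where it was 5.80 and 5.85 on the arrays with exendin-4 and 5.03 and 4.88 on those without.

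The test of whether the BayK8644 effect differed between 24 h and 0.5 h gave 0 of the 28 genes, against 1.02% of all genes. An unadjusted p under 0.05 was found for 5 of 28 (17.9%), against 15.1% of all genes. The smallest adjusted p values of this test were those of Mxi1 (difference of the effects −0.60, SE 0.13, limma adjusted p = 0.0747) and Pfkfb2 (−0.69, adjusted p = 0.0811). The differences were negative for 21 of 28 genes and positive for 7 (25%, against 49.4% of all genes). Their median was −0.16, against −0.0038 for all genes. Leaving out the DMSO or the BayK8644 array at 24 h gave 1 call.

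Other genes of oxygen sensing were read from a list of 15 measured genes. Epas1, which encodes the HIF-2α subunit, was the one that moved with BayK8644. Epas1 measured 4.31, 4.48, 5.96 and 5.34 on the combination arrays at 0.5, 2, 6 and 24 h, 4.30, 5.20, 6.03 and 5.88 on the BayK8644 arrays, 4.31, 3.96, 4.13 and 3.85 on the exendin-4 arrays and 4.11, 4.29, 4.21 and 3.84 on the DMSO arrays. With BayK8644 it was 1.82 higher on the log2 scale at 6 h (SE 0.17, limma adjusted p = 0.000918) and 1.77 higher at 24 h (SE 0.17, adjusted p = 0.000643). At 0.5 h its levels with and without BayK8644 lay between 4.11 and 4.31, and the effect at 24 h minus that at 0.5 h was 1.67 (SE 0.24, adjusted p = 0.0134). The calls at 6 and 24 h held without any 1 array (adjusted p up to 0.0466 and 0.00666), and the change was lost without the 0.5 h array of any 1 treatment (adjusted p up to 0.17). Levels without BayK8644 were near the filter level, so the size depends in part on the background floor. Hif1a itself did not pass in any comparison. Vhl, which directs HIF subunits to degradation, was 0.29 lower at 24 h than at 0.5 h (adjusted p = 0.0113), and its DMSO array at 24 h (10.09) stood above the other 3 at 24 h (9.63 to 9.72).

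**Figure D5:**
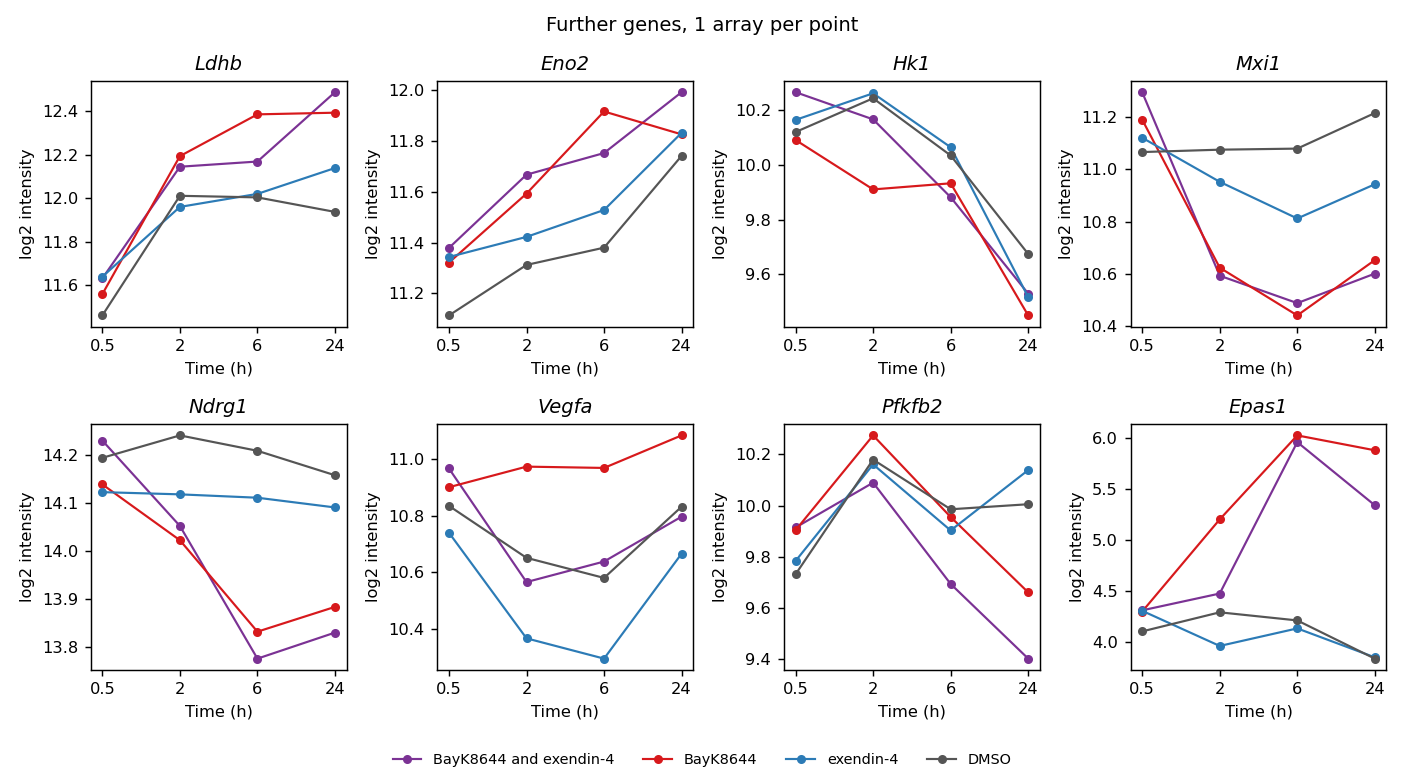
Log2 intensity of Ldhb, Eno2, Hk1, Mxi1, Ndrg1, Vegfa, Pfkfb2 and Epas1 against time, with 1 array per point and a line per treatment. From 2 h on, the lines with BayK8644 lie below the others for Mxi1 and Ndrg1 and above them for Epas1, and Hk1 is lowest at 24 h in all 4 treatments.

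Of 27 further hypoxia targets measured, 10 rose and 1 fell at 24 h against 0.5 h, where 23.6% of all genes passed. Adm, a vasodilator peptide, was 0.96 higher (limma adjusted p = 0.00265), Plod2, a collagen lysyl hydroxylase, 0.69 (adjusted p = 0.000943), the repressor Bhlhe40 0.67 (adjusted p = 0.00184) and the cytokine Mif 0.42 (adjusted p = 2.81e-06). Hmox1, the haem-degrading enzyme, was 0.32 higher (adjusted p = 0.0371). The call of Hmox1 was lost without the 0.5 or 24 h array of BayK8644 or of the combination (adjusted p up to 0.144), and those of the other 4 held in each fit without 1 array. At 2 h against 0.5 h, Bhlhe40 was 0.96 higher (adjusted p = 0.00289) and Hmox1 0.41 (adjusted p = 0.0387). At 6 h, Tfrc, the transferrin receptor (0.32, adjusted p = 0.00277), and Mif (0.16, adjusted p = 0.0222) were higher, and Pygl, the liver glycogen phosphorylase, was lower (−0.39, adjusted p = 0.0467). The calls of Hmox1 at 2 h (adjusted p up to 0.16) and of Pygl at 6 h (up to 0.161) were each lost in 10 of the 16 fits without 1 array, and without the 2 arrays with the largest residuals. Those of Bhlhe40 and Tfrc held in all 16, and that of Mif was lost in 4 (adjusted p up to 0.0933). With the mean of its probe sets Tfrc no longer passed at 6 h (adjusted p = 0.414). With the combination, 6 of the 27 rose over the 4 times, against 6.97% of all genes. They were Adm (1.39, adjusted p = 0.00233), Bhlhe40 (0.51, adjusted p = 0.0324), Anxa2 (0.51, adjusted p = 0.0464), Higd1a (0.42, adjusted p = 0.043), Fam162a (0.32, adjusted p = 0.0478) and Mif (0.20, adjusted p = 0.0128). Of these 6, the call of Adm held without any 1 array, and the other 5 were each lost in at least 1 such fit, Mif only without the DMSO array at 2 h (adjusted p = 0.0567). Bhlhe40 was lost in 6 of the 16, Higd1a in 10, Fam162a in 11 and Anxa2 in 12.

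Adm and Txnip had been singled out earlier from these same data, so their values are a description. Adm measured 6.89, 6.95, 7.17 and 8.27 on the combination arrays at 0.5, 2, 6 and 24 h, 6.75, 6.92, 7.09 and 7.51 on the BayK8644 arrays, 5.81, 5.59, 5.69 and 6.16 on the exendin-4 arrays and 5.58, 5.03, 6.19 and 6.91 on the DMSO arrays. Adm was 1.14 higher with BayK8644 than with DMSO over the 4 times (adjusted p = 0.0167), and at each time both arrays with BayK8644 were above both without it. Txnip measured 8.91, 8.63, 8.69 and 8.63 on the combination arrays at 0.5, 2, 6 and 24 h, 9.15, 8.75, 8.56 and 8.80 on the BayK8644 arrays, 9.45, 9.41, 9.26 and 9.18 on the exendin-4 arrays and 9.56, 9.29, 9.32 and 9.51 on the DMSO arrays. Txnip, a glucose-induced inhibitor of glucose uptake, was 0.70 lower with the combination (adjusted p = 0.000756) and 0.60 lower with BayK8644 (adjusted p = 0.00356) than with DMSO. Between arrays with and without BayK8644, Txnip was 0.66 lower at 2 h and at 6 h and 0.63 lower at 24 h (adjusted p = 0.0192, 0.0143 and 0.0133), and Adm was 1.62 higher at 2 h and 1.36 higher at 24 h (adjusted p = 0.0354 and 0.0394). The Adm calls at 2 and 24 h were lost in 12 and 14 of the 16 fits without 1 array, and the Txnip calls at 2, 6 and 24 h in 8, 4 and 2. Txnip was also 0.31 lower at 6 h than at 0.5 h over the treatments (adjusted p = 0.0325), a call lost in 6. At 24 h, BayK8644 also went with higher Ero1a, an oxidase of the endoplasmic reticulum (0.52, adjusted p = 0.0422), and with lower Rora, a nuclear receptor (−0.50, adjusted p = 0.0359). Both of these calls were lost in 14 of the 16 fits without 1 array. The call of Adm with BayK8644 over the 4 times was lost without the BayK8644 array at 2 or 6 h or the DMSO array at 2 h (adjusted p up to 0.0951), and those of Txnip over the 4 times held in all 16.

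Of 18 other glycolysis and glucose-handling genes, 2 rose and 2 fell at 24 h against 0.5 h (22.2%, against 23.6% of all genes). This share is near that of all genes. Those with small differences are named here, after their values were seen, to account for the count. Pkm, the pyruvate kinase, was 0.17 higher (adjusted p = 0.00342) and had already been 0.15 higher at 2 h (adjusted p = 0.029) and 0.19 at 6 h (adjusted p = 0.00954). G6pc2, the islet glucose-6-phosphatase, was 0.17 higher at 24 h (adjusted p = 0.0059). Slc16a1, a monocarboxylate transporter, was 0.48 lower (adjusted p = 1.43e-05) and the fructose transporter Slc2a5 0.26 lower (adjusted p = 0.0088). With the combination, Tigar, a fructose bisphosphatase, was the 1 gene of the 18 to pass (0.25, adjusted p = 0.0263), against 6.97% of all genes. This call was lost in 5 of the 16 fits without 1 array and with the mean of its probe sets (adjusted p = 0.186). The calls of Pkm at 6 and 24 h and of G6pc2, Slc16a1 and Slc2a5 held without any 1 array, and that of Pkm at 2 h was lost in 7 of the 16 (adjusted p up to 0.126). Of 12 genes for pyruvate entry into mitochondria, Dld fell (−0.19, adjusted p = 0.0106) and Pck2 rose (0.13, adjusted p = 0.0302) at 24 h. That is 16.7% of the 12, against 23.6% of all genes. Pdp1, a pyruvate dehydrogenase phosphatase, was lower at 2 h (−0.33, adjusted p = 0.0142) and 6 h (−0.26, adjusted p = 0.0239). Its call at 2 h was lost without the combination array at 2 h (adjusted p = 0.0622) and that at 6 h in 7 of the 16 fits (adjusted p up to 0.0733). Dld also passed at 6 h (−0.17, adjusted p = 0.0483), a call lost in 12 of the 16, and so did the beta-cell marker Pcsk1 (−0.28, adjusted p = 0.0206), lost in 5. The Dld call at 24 h held without any 1 array, and that of Pck2 was lost without any 1 array at 0.5 h (adjusted p up to 0.118). Pcx, which feeds pyruvate into the citric acid cycle, was 0.28 lower with BayK8644 at 24 h (adjusted p = 0.043), a call lost in all 16 fits without 1 array.

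Over the 15 comparisons, 16 of the 28 genes passed at least once, in 29 calls, with Ldhb passing 4 times and Eno2, Mxi1 and Ndrg1 3 times each. The 12 that passed in none were Slc2a1, Slc2a3, Pfkp, Pfkfb3, Tpi1, Slc16a3, Pdk1, P4ha1, Egln1, Hif1a, Bnip3 and Ankrd37. Slc2a3 lay between 3.39 and 4.25, at the filter level. Of the 29 calls, 18 were of genes with another probe set past the filter, and 0 of these 18 had a probe set of opposite sign.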

How the data were processed

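RNA of R7T1 cells was read on 16 Affymetrix arrays in 1 colour. The authors deposited 1 linear intensity per probe set. The submitters' processing notes name GCRMA, which removes background by probe sequence, equalises the distributions of the arrays and combines the probes of a set. Its version is not given in the sources used here. Log2 of each of the 45101 values was taken with no pseudocount. Of the probe sets, 34958 had 1 gene symbol in the platform annotation, 932 had several and 9211 none, and 13 controls with 1 symbol were left out. A probe set was kept where log2 reached 4 (intensity 16) on at least 2 arrays, and the one with the highest mean stood for its gene, which left 10610 of 18193 genes. The number of arrays limits precision.

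Linear models over all genes used limma 3.58.1 (eBayes with trend) under R 4.3.3, with Benjamini-Hochberg adjusted p-values and 0.05 as threshold. Time plus treatment left 9 residual degrees of freedom, so the 4 times of a treatment served as its replicates. Agents by time, taken as additive, left 4. The steps were tested on simulated data. Each gene past the threshold is named, and of the related lists the 8 largest calls per comparison. Smaller ones were named after their values were seen, to account for a short list's count. The members and lists were chosen with earlier results of these data known. Alternatives changed the filter, scaling, probe set rule, eBayes trend, arrays fitted and interaction term.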

Additional observations from a re-analysis of the deposited data

Results flagged for a closer look

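Within a treatment, the 4 times formed a group of 4 arrays for each gene, and 1 array lay far from the other 3 in 10 of 112 such groups (8.93%). The rule flags about 5% of groups whose 4 values differ only at random. Arrays of a group here differ in time, and the share over all genes is not given. The 8.93% is therefore not shown to be an excess of these genes. The DMSO array at 24 h was the one that stood high for Ldha (12.26, the other 3 between 10.94 and 11.12), Tpi1 (14.93, others 14.41 to 14.49), Aldoc (9.48, others 8.77 to 8.82) and Mxi1 (11.21, others 11.07 to 11.08). The combination array at 0.5 h stood high for Mxi1 (11.29, others 10.49 to 10.60) and low for Pgk1 (13.95, others 14.04 to 14.05). At 24 h, Aldoc stood high with exendin-4 (8.91, others 8.84), P4ha1 stood high with the combination (10.39, others 10.10 to 10.15), and Egln1 stood low with BayK8644 (9.22, others 9.38 to 9.39). At 0.5 h, Ldhb stood low with DMSO (11.46, others 11.94 to 12.01). Since time differs between the arrays of a group, a time course and a deviating array cannot be told apart.

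The BayK8644 effect at 24 h differed from that at 0.5 h for 4 genes of the related and marker lists by limma's test of the difference. For Epas1 the effect at 24 h minus that at 0.5 h was 1.67 (adjusted p = 0.0134). For Pnrc1, a nuclear receptor coactivator gene listed among the hypoxia targets, it was −0.67 (adjusted p = 0.0423). The Pnrc1 call was lost in 10 of the 16 fits without 1 array (adjusted p up to 0.416). It was also lost with no filter, with arrays re-centred, with the mean of the probe sets, with eBayes without the trend, and without the DMSO array at 24 h and the combination array at 0.5 h (adjusted p up to 0.171). For the markers Sst and Nkx2-2 the differences were 2.37 and −0.75 (adjusted p = 0.00437 for both), and each call was lost without any 1 array at 0.5 h (adjusted p up to 0.0771 and 0.0882).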

How the results depend on the processing

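Alternatives were read for the members' differences already past the threshold. None of these changed sign in any of 749 values, but 177 of the values were no longer past the threshold. Differences that had not passed are not in this count, so it says nothing of their sign. Counts of members past it were 3 (combination against DMSO), 2 (6 h) and 1 (BayK8644 at 6 h) with no filter on low values. With arrays re-centred, with quantile normalization repeated and with an interaction of the agents, 1 gene passed for BayK8644 at 2 h, and the change of the BayK8644 effect had 1 with quantile normalization repeated and 2 with the interaction. The mean of a gene's probe sets gave 1 for BayK8644 at 6 h. Without the trend in eBayes, counts were 3 for the combination, 0 for BayK8644 at 6 h and 1 for it at 24 h. Fitting only the 2 groups compared gave 0 for the combination, 1 at 6 h and 5 at 24 h against 0.5 h, with fewer arrays behind the error. Without the arrays of 0.5 h, BayK8644 against DMSO gave 5, and without those of 2 h or 6 h the combination gave 0. Without the DMSO array of 24 h and the combination array of 0.5 h, BayK8644 against DMSO gave 1, the combination 14 and BayK8644 at 2 h 1. Those 2 arrays were chosen by residuals over these same genes, and shares of all genes are not given for these alternatives. Larger counts than in the main fits are therefore not a result about the genes. Leaving out 1 array at a time gave 0 to 3 for BayK8644 against DMSO, 0 to 10 for the combination, 1 to 2 at 2 h, 2 to 5 at 6 h, 10 to 13 at 24 h, 0 to 2, 0 to 5 and 0 to 5 for BayK8644 at 2, 6 and 24 h, and 0 to 1 for the change of its effect. At 24 h against 0.5 h the 13 came without the 24 h array of BayK8644 or exendin-4, and at 6 h the 5 came without the DMSO array at 0.5 or 24 h. Tfrc at 24 h against 0.5 h was 0.22 with its highest probe set and −0.045 with the mean of its probe sets. Where not stated, the cause was not tested. Low signal limits Slc2a3 and Epas1, and kept Hk2, Egln3 and Car9 out. No paired analysis was possible because the labels give no replicate numbers, and time was in every model.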
